A study of Mus musculus with 12 samples.

Results

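Loperamide was added to the FoxO1 inhibitor AS1842856 in Min6 cells, and the 3 libraries of cells given both compounds (FoxOi_Loperamide) were compared with the 3 libraries of cells given the inhibitor alone (FoxOi). These are 6 of the 12 libraries of the series and were taken by their labels. FoxOi_Loperamide cells received 1 µM of the inhibitor and 5 µM of loperamide, FoxOi cells 1 µM of the inhibitor, Loperamide cells 5 µM of loperamide, and DMSO cells only the solvent, each for 48 h. The Loperamide and DMSO groups, also of 3 libraries each, show what the inhibitor did (FoxOi against DMSO) and what loperamide did without it (Loperamide against DMSO). Min6 is a beta cell line from an insulinoma of mice that carry SV40 T antigen, so its cells divide where beta cells of an islet seldom do. The labels do not say whether libraries of a group came from separate cultures, so p-values measure the spread between these libraries, which may be technical.

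FoxO1 is a forkhead transcription factor that insulin signalling, through Akt, keeps out of the nucleus, and in beta cells it is known for holding the mature state under metabolic stress. That state rests on a set of transcription factors, among them Pdx1, Mafa, Nkx6-1, Pax6 and Neurod1, which activate insulin and the genes of glucose sensing. AS1842856 binds the active form of the FoxO1 protein and blocks its transcriptional activity, so the level of Foxo1 mRNA does not check the treatment. Loperamide is an agonist of the mu opioid receptor that is taken against diarrhoea. The gene of that receptor, Oprm1, had 50 counts over the 3 FoxOi_Loperamide libraries, 27 over FoxOi, 55 over Loperamide and 85 over DMSO. The delta receptor gene Oprd1 had 29, 28, 53 and 50 counts over the same groups, and the kappa receptor gene Oprk1 had 0 in each group.

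Total counts ran from 15018492 to 17539431 in the FoxOi_Loperamide libraries, from 17080681 to 19499216 in FoxOi, and from 10640485 to 17045589 in the other 6. Levels are given in CPM, the count scaled by the library total after TMM scaling. Ins2 took 1.89% to 2.20% of all counts in FoxOi_Loperamide libraries and 1.66% to 1.99% in FoxOi libraries. Counts of the mitochondrial genome were 2.38% to 3.30% in FoxOi_Loperamide and 1.77% to 2.25% in FoxOi. The count tables do not show whether reads were assigned by strand, so for Pam, Pcx, Kdelr3, Ddit3, Fosl1, Pcdh15, Klhl14, Nusap1, Unc13a, Slc2a2, Gulp1, Nefl, Dbp, Erlec1, Syvn1, mt-Ti and mt-Tw, each of which overlaps another annotated gene, the reads of both partners may not be separable. Ins1 and Ins2 are closely similar copies, and reads may be split between them. In bulk libraries a lower level per cell and fewer cells with a transcript cannot be told apart.

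Promoters of 6 genes that loperamide lowered in inhibitor-treated cells are printed first. They hold motifs searched for in 2 gene groups described here, the ER chaperones and the genes that the inhibitor raised and loperamide lowered. Each is the 250 bases before the RefSeq start (GRCm38.p6, the build of the files, + strand except Hsp90b1 on the - strand). Of these, Pdia6 and Hsp90b1 were chosen after their values were seen. Plaur, Mmp10 and Pla2g2e were also named by the size or p-value of their change in these data. Each of the 6 is shown because it holds the motif. In Hspa5 (chr2:34771840-34772089), Hsp90b1 (chr10:86705445-86705694) and Pdia6 (chr12:17266339-17266588) capitals mark the ER stress response element, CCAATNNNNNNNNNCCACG on either strand.
Hspa5: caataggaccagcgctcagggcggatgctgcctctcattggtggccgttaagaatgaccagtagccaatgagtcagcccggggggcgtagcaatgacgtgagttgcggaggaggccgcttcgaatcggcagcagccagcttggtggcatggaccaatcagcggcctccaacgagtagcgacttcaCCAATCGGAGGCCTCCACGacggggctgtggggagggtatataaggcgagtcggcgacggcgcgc
Hsp90b1: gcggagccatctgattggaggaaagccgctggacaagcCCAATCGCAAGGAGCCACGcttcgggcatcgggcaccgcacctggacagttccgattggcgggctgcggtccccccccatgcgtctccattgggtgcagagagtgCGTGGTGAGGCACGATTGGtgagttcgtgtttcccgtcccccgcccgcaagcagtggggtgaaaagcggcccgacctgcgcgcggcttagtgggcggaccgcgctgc
Pdia6: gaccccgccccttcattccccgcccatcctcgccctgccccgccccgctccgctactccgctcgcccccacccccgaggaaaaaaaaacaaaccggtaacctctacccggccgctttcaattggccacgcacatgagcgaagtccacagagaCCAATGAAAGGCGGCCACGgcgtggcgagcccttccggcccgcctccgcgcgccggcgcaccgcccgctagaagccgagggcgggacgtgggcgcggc
In Plaur (chr7:24462233-24462482), Mmp10 (chr9:7502092-7502341) and Pla2g2e (chr4:138877692-138877941) capitals mark the AP-1 motif, TGANTCA, which reads alike on both strands.
Plaur: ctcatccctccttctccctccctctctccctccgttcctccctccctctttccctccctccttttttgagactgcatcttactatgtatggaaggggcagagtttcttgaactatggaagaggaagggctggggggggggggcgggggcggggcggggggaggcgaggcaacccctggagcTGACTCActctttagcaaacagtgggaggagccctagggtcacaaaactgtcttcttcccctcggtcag
Mmp10: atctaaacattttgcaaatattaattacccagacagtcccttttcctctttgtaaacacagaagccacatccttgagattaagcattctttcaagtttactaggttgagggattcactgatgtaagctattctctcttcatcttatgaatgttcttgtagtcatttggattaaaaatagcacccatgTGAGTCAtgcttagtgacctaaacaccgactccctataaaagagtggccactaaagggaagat
Pla2g2e: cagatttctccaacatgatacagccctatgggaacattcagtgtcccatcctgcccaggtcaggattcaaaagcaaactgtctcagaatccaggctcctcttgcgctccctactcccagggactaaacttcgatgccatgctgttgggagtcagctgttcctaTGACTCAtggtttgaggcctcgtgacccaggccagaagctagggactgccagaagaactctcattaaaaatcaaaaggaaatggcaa
Among the motifs searched, Hspa5 also holds an AP-1 match 182 bases before the start and Mmp10 a FoxO match (GTAAACA) 199 bases before it, both left in lower case.
Searched over 250 bases before to 50 after each start, the ER element occurred in 7 of the 22 tested ER chaperone genes with a promoter in the table (31.8%), against 18 of 10861 tested genes (0.166%). It was in 2 of 17 genes of ER-associated degradation, in 0 of 38 genes of ER translocation and transport and in 0 of 13 factors of the unfolded protein response, lists that are described with the chaperones. The AP-1 motif occurred in 45 of 354 genes that the inhibitor raised and loperamide lowered (12.7%), and in 5.99% of tested genes. It was in 16 of 148 genes that the inhibitor lowered and loperamide raised (10.8%). It was also in 8 of 81 genes that both lowered (9.88%) and in 2 of 46 that both raised (4.35%). The FoxO motif GTAAACA, also on either strand, was in 14 of the 354 genes (3.96%), 7 of the 148 (4.73%) and 3.01% of tested genes. The ER and AP-1 matches shown do not overlap each other, and a match is a description of letters, not of a bound site.

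Loperamide moved more genes down than up in inhibitor-treated cells. Of 16808 genes tested with edgeR's quasi-likelihood test, 4465 (26.6%) differed between FoxOi_Loperamide and FoxOi at an adjusted p under 0.05, 1926 higher (11.5%) and 2539 lower (15.1%). Counts of called list members given below stand against these shares of all genes. At least a 2-fold change was called for 219 higher (1.30%) and 888 lower genes (5.28%). With the replicate number as a block in the fit, 7504 genes were called, 3638 higher and 3866 lower. The median over all tested genes was 0.00 on the log2 scale.

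The inhibitor's own effects set the frame for the rest. FoxOi differed from DMSO in 6881 genes (40.9%), 3476 higher (20.7%) and 3405 lower (20.3%), and in 952 raised (5.66%) and 908 lowered genes (5.40%) the change was at least 2-fold. Of the 952 raised genes, loperamide lowered 499 (52.4%) and raised 57 further (5.99%). Of the 908 lowered genes, it raised 204 (22.5%) and lowered 121 further (13.3%). Both comparisons use the FoxOi libraries, so a deviation of those libraries enters them with opposite signs, and these counts are a description. With the block, 94 raised genes were raised further. At the threshold, Ier5l (log2 1.00 for FoxOi minus DMSO) was just inside and Ctsb (0.996) just outside among raised genes, as were Gys2 (-1.00005) and Ifitm2 (-0.99958) among lowered ones.

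The share of the inhibitor's log2 effect that was undone had a median of 39.8% over all 952 raised genes and 10.8% over all 908 lowered ones, and at least 50% was undone in 411 and 154 of them. Within the reversed classes, which were chosen by the loperamide call, the median was 82.4% among the 499 and 51.4% among the 204. Set against DMSO, 262 of the 499 were no longer called, 170 were still called higher and 67 were called lower in FoxOi_Loperamide. Of the 204, 56 were no longer called, 144 were still called lower and 4 were called higher. Loperamide alone, against DMSO, lowered 99 of the 499 and raised 54, and 346 were not called. It raised 94 of the 204 and lowered 14, and 96 were not called. Of the 57 genes raised further, it raised 38 and lowered 1, and 18 were not called.

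**Figure D1:**
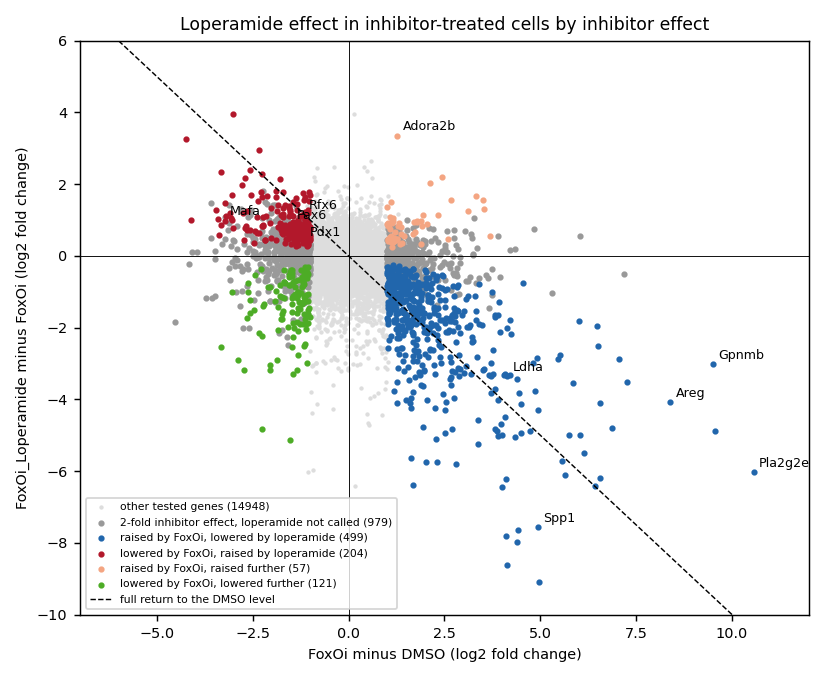
Each point is a tested gene, with the log2 fold change of FoxOi against DMSO on the x axis and that of FoxOi_Loperamide against FoxOi on the y axis. Colours mark the 499 reversed rises, 204 reversed falls, 57 deepened rises and 121 deepened falls, and the dashed line marks a full return to DMSO. Fitted values of genes with 3 or fewer counts in DMSO, such as Pla2g2e and Gpnmb, depend on the prior count.

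Secreted growth factors and matrix proteins were among the genes with the steepest reversals. Spp1, which encodes the secreted phosphoprotein osteopontin (ENSMUSG00000029304, chromosome 5, 104435118 to 104441050), had 0.979, 1.38 and 0.854 CPM with FoxOi_Loperamide, against 182, 235 and 189 CPM with FoxOi. All 3 libraries with both compounds lay below the DMSO level of 6.55 ± 1.09 CPM (SD, n = 3) as well. The fall was 7.56 ± 0.18 on the log2 scale (SE, adjusted p = 2.71e-12), after a rise of 4.94 ± 0.15 with the inhibitor. Spp1 is also a ductal marker. The 12 ductal markers, Spp1 among them, summed to 244 to 333 CPM per FoxOi_Loperamide library and 500.4 to 561 CPM per FoxOi library, with 2 at 0 in both groups. Much of that difference was Spp1 itself. Of 7 tested ductal markers, 3 fell, Spp1 included, and 0 rose, or 5 and 0 with the block. Krt7 had 169, 116 and 132 CPM with FoxOi_Loperamide and 162, 131 and 124 CPM with FoxOi. The part of ductal cells in the result was not tested. Areg, which encodes the EGF receptor ligand amphiregulin (ENSMUSG00000029378, chromosome 5, 91139599 to 91148432), had 8.16, 8.0 and 8.05 CPM with FoxOi_Loperamide and 122, 168 and 117.95 CPM with FoxOi. The groups were far apart, yet Areg remained above the DMSO level of 0.406 ± 0.170 CPM, since a fall of 4.07 ± 0.15 undid 48.6% of a rise of 8.39 ± 0.21.

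The other ligands of the EGF receptor among the genes named went the same way. Ereg, which encodes epiregulin, had 4 counts over the 3 FoxOi_Loperamide libraries and 152 over FoxOi, a log2 fold change of -5.00 ± 0.53. Hbegf fell by 1.72 ± 0.11, to 22.8 ± 1.89 CPM with both compounds, against 75.3 ± 5.76 CPM with FoxOi and 53.4 ± 8.01 CPM with DMSO. Over the list of EGF family ligands and receptors, 4 of 7 tested genes fell, each of which the inhibitor had raised, and 1 rose.

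Some genes of extracellular proteolysis, 4 of 11 on their list, and the phospholipase genes Pla2g2e and Pla2g5 were raised by the inhibitor and lowered by loperamide. Plaur, the receptor of urokinase, had 0.272, 0.125 and 0.305 CPM with FoxOi_Loperamide, against 6.68, 7.03 and 7.02 CPM with FoxOi. Its promoter is the first of the AP-1 sequences above, with the motif 69 bases before the start, and the groups did not overlap. Urokinase itself, Plau, fell by 3.83 ± 0.40. Mmp10, which encodes the matrix metalloproteinase stromelysin-2, had 10 counts over FoxOi_Loperamide, 331 over FoxOi and 0 over DMSO, so FoxOi was at least 91.1-fold higher than DMSO on a floor of 3 counts over the group. With loperamide added it fell by 4.88 ± 0.41 on the log2 scale.

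Pla2g2e, a secreted phospholipase A2, had 0.218, 0.188 and 0.122 CPM with FoxOi_Loperamide and 11.2, 11.5 and 13.5 CPM with FoxOi. In DMSO it had 0 counts, which puts FoxOi at least 182-fold higher. Pla2g5, of the same family, had 0 counts with FoxOi_Loperamide against 241 with FoxOi, so it was at least 73.8-fold lower. Among the steepest falls from the FoxOi level were also 2 genes best known from immune cells. Their DMSO levels are not given here, so no inhibitor rise is stated for them. Il4, the cytokine interleukin 4, had 3 counts against 828, a ratio of FoxOi to FoxOi_Loperamide of 255 (95% exact interval 87.0 to 1239). Tpsab1, a mast cell tryptase, had 3 counts against 932, a ratio of 287 (97.9 to 1395). These intervals and floors cover counting error only. Of 11 tested matrix metalloproteinases, their inhibitors and plasminogen activators, 4 fell and 0 rose with loperamide, and 7 had risen with the inhibitor.

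**Figure D2:**
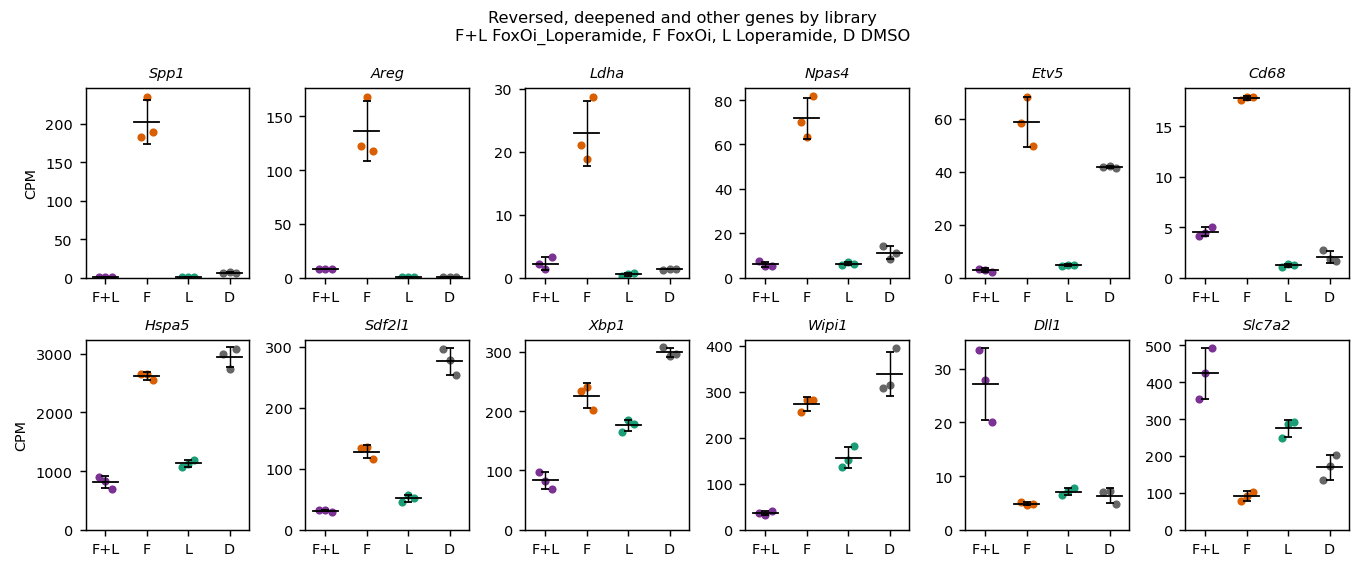
CPM of 12 genes in each library (points) with the mean and SD of 3 libraries (bars), with FoxOi_Loperamide (F+L) left of FoxOi (F), Loperamide (L) and DMSO (D). Spp1, Areg, Ldha, Npas4, Etv5 and Cd68 are lower in every FoxOi_Loperamide library than in every FoxOi library, as are Hspa5, Sdf2l1, Xbp1 and Wipi1, while Dll1 and Slc7a2 are higher.

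Transcription factors that growth or calcium signals induce fell in several cases. Fosl1, an AP-1 subunit, had 0.599, 0.188 and 0.244 CPM with FoxOi_Loperamide and 11.9, 13.4 and 7.89 CPM with FoxOi. Npas4, an activity-dependent factor that calcium entry induces (ENSMUSG00000045903, chromosome 19, 4984355 to 4990316), had 7.29, 5.25 and 5.18 CPM against 70.3, 63.4 and 81.7 CPM, and Maff, a small Maf protein, fell by 1.77 ± 0.12. In each of these genes the highest FoxOi_Loperamide library was below the lowest FoxOi library. Npas4 fell by 3.60 ± 0.18 (adjusted p = 6.33e-09), which took it below the DMSO level of 11.2 ± 2.82 CPM.

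Egr1, a zinc finger factor of the same early response, did the opposite. It had 308, 399 and 309 CPM with FoxOi_Loperamide and 90.2, 112 and 91.4 CPM with FoxOi, and DMSO libraries held 264, 406 and 287 CPM. The inhibitor had lowered it by 1.70 ± 0.16, and loperamide raised it by 1.79 ± 0.16, back into the DMSO range. Of 30 tested immediate early and AP-1 genes, 15 were lower and 5 higher with loperamide (list median -0.39), where the inhibitor had raised 20 and lowered 3. The 5 higher genes became 2 without FoxOi_Loperamide replicate 3 and 3 without FoxOi replicate 1 or FoxOi replicate 2.

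The ETS factors Etv4 and Etv5 and the ERK phosphatase Dusp6, all induced by ERK activity itself, fell with loperamide in the presence and in the absence of the inhibitor. Etv5 had 3.32, 2.94 and 1.95 CPM with FoxOi_Loperamide, against 58.3, 68.4 and 49.8 CPM with FoxOi. Libraries with Loperamide alone had 4.29, 4.79 and 4.89 CPM, also under every DMSO library at 41.9, 42.1 and 41.5 CPM. Etv4 fell by 4.44 ± 0.21 and Etv5 by 4.41 ± 0.16 with loperamide added to the inhibitor. Dusp6 fell by 2.29 ± 0.14, and it had already fallen by 0.85 ± 0.12 with the inhibitor. Of 18 tested ERK feedback and ETS genes, 13 fell and 1 rose, or 2 with the block (median -0.86), and 8 of the 11 that the inhibitor had raised were among those that fell.

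Many glycolytic genes that the inhibitor had raised came down with loperamide. Ldha, the lactate dehydrogenase subunit that mature beta cells keep silent (ENSMUSG00000063229, chromosome 7, 46841475 to 46855627), had 2.12, 1.31 and 3.23 CPM with FoxOi_Loperamide and 21.1, 18.9 and 28.7 CPM with FoxOi. The groups did not overlap, and 2 of the 3 FoxOi_Loperamide libraries were above the DMSO range of 1.28, 1.31 and 1.32 CPM. Ldha fell by 3.36 ± 0.25 (adjusted p = 1.62e-07), which undid 81.4% of a rise of 4.13 ± 0.27. The glucose transporter Slc2a1 fell by 1.43 ± 0.11 and undid 89.6% of its rise, and phosphoglycerate kinase, Pgk1, fell by 0.70 ± 0.07 and undid 85.3%.

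Of 22 tested glycolysis gene IDs, with Aldoa under 2 of them, 12 were lower and 4 higher with loperamide. All 12 that were lower had been raised by the inhibitor, out of 16 raised in all. The 4 higher genes became 2 without FoxOi_Loperamide replicate 1, FoxOi_Loperamide replicate 2 or FoxOi replicate 2. Of 18 genes of the hypoxia response, 6 fell and 1 rose, a gene lost without FoxOi_Loperamide replicate 1 or 2 or FoxOi replicate 2 or 3, and joined by another with the block. The collagen prolyl hydroxylases P4ha1 and P4ha2 of that list fell by 1.13 ± 0.09 and 1.79 ± 0.11. Cxcl12, a chemokine that is also on the list of genes mature beta cells keep low, had 14.96, 14.5 and 19.8 CPM with FoxOi_Loperamide against 89.6, 99.0 and 73.6 CPM with FoxOi, and undid 75.1% of its rise. On that list 7 of 13 tested genes fell and 1 rose, against 7 higher and 3 lower with the inhibitor, and 3 rose with the block or 2 without FoxOi_Loperamide replicate 2.

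Genes of the integrated stress response were raised by the inhibitor almost throughout, and loperamide lowered some of them. Of 29 tested ATF4 and stress response genes, the inhibitor raised 25 and lowered 0 (median 1.08). With loperamide added, 9 fell and 2 rose (median -0.29), and 18 fell and 3 rose with the replicate block. Without one library the 2 higher genes were 0 (FoxOi_Loperamide replicate 1 or 2, FoxOi replicate 2 or 3) or 1 (FoxOi_Loperamide replicate 3, Loperamide replicate 3). Nupr1, a stress-induced nuclear protein, had 27.7, 20.3 and 18.1 CPM with FoxOi_Loperamide, against 135, 115 and 94.8 CPM with FoxOi. It stayed above the DMSO libraries at 16.7, 10.6 and 9.02 CPM. Cth, an enzyme of cysteine synthesis, fell by 1.24 ± 0.16 and Stc2, a secreted glycoprotein, by 1.97 ± 0.25.

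Ddit3, the ATF4 partner CHOP, was among those that did not pass the test. It had 161, 139 and 93.1 CPM with FoxOi_Loperamide and 159, 139.8 and 109.6 CPM with FoxOi, a log2 difference of -0.05 ± 0.25 (adjusted p = 0.907). The groups overlapped, and the inhibitor's rise of 1.72 ± 0.26 stood. Cytosolic aminoacyl-tRNA synthetases, which ATF4 also induces, fell in 8 of 19 tested genes and rose in 0, with 13 and 1 under the block. Eprs fell by 0.65 ± 0.08 and Rars by 0.54 ± 0.09, and the count was 5 without FoxOi_Loperamide replicate 2 or 3 and 4 without FoxOi replicate 1.

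Several genes known from macrophages fell with loperamide added, and lysosomal genes went both ways. Cd68, a lysosomal membrane protein used as a macrophage marker, had 4.14, 4.44 and 5.06 CPM with FoxOi_Loperamide and 17.6, 17.9 and 17.9 CPM with FoxOi. It remained above the DMSO libraries, at 2.75, 1.87 and 1.61 CPM, after a fall of 1.97 ± 0.15. Gpnmb, another lysosomal glycoprotein, had 138 counts over FoxOi_Loperamide, 1214 over FoxOi and 1 over DMSO. Of 5 tested macrophage and leukocyte markers, 4 fell and 0 rose. The 16 listed ones summed to 13.4 to 17.1 CPM per FoxOi_Loperamide library and 56.3 to 60.5 CPM per FoxOi library. Among the defining ones, Csf1r had 4 counts over FoxOi_Loperamide and 62 over FoxOi, a log2 fold change of -3.71 (adjusted p = 0.00102), and Itgam 4 and 11. Ptprc had 1 and 2 counts over those groups, Adgre1 2 and 1, Cx3cr1 1 and 0, and Tyrobp 0 and 0. The part of such cells in the falls was not tested. Of 35 tested lysosomal genes, 7 rose and 7 fell with loperamide, against 11.5% and 15.1% of all tested genes. With the block 12 rose and 12 fell, and the inhibitor had raised 25. Cathepsin H (Ctsh) fell by 2.76 ± 0.25 and alpha-galactosidase (Gla) by 0.94 ± 0.11. The 7 higher genes were 3 without FoxOi_Loperamide replicate 1 or FoxOi replicate 2 and 4 without FoxOi_Loperamide replicate 3.

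Some targets of the oxidative and heat stress factors fell. Of 23 tested NRF2 targets, 7 fell and 1 rose, against 15.1% and 11.5% of all tested genes, or 13 and 2 with the block. Sulfiredoxin (Srxn1) was at -0.94 ± 0.08 and the autophagy receptor Sqstm1 at -0.69 ± 0.13. Of 19 heat shock genes, 7 fell and 0 rose, or 11 and 0 with the block, and 4 or 3 fell without FoxOi_Loperamide replicate 1 or FoxOi replicate 2. The small heat shock protein Cryab had 0.218, 0.250 and 0.244 CPM with FoxOi_Loperamide and 5.52, 9.99 and 7.63 CPM with FoxOi, a fall of 4.98 ± 0.38.

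Most transcription factors of the beta cell were lowered by the inhibitor, and loperamide raised some of them. Of 24 tested factors, the inhibitor lowered 17 and raised 0 (median -0.78). With loperamide added, 12 rose, each of them among those 17, and 3 fell (median 0.34), against 11.5% and 15.1% over all genes. With both compounds 13 of the 24 were still called lower than in DMSO and 0 higher. With the block 14 rose and 6 fell, and the 3 lower genes were 1 without FoxOi_Loperamide replicate 2 or 3 or FoxOi replicate 1 or 2.

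Mafa, an activator of insulin transcription in mature beta cells (ENSMUSG00000047591, chromosome 15, 75745490 to 75748228), had 162, 171 and 179.8 CPM with FoxOi_Loperamide, against 90.8, 107 and 62.3 CPM with FoxOi. The groups did not overlap, but DMSO libraries stood at 805, 846 and 782 CPM. The rise of 0.98 ± 0.14 (adjusted p = 0.000149) undid 30.4% of an inhibitor effect of -3.23 ± 0.15 on the log2 scale. Nkx2-2, another factor of beta cell identity, rose by 0.45 ± 0.10 to 42.0 ± 0.968 CPM with both compounds, against 30.8 ± 2.99 CPM with FoxOi and 139 ± 1.13 CPM with DMSO.

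Pax6 and Rfx6, which act in all or most endocrine cells of the islet, returned further. Pax6 (ENSMUSG00000027168, chromosome 2, 105668900 to 105697364) had 234, 222 and 215 CPM with FoxOi_Loperamide and 128, 120.4 and 119.8 CPM with FoxOi, and 58.4% of its fall was undone. Rfx6 (ENSMUSG00000019900, chromosome 10, 51677756 to 51730432) had 91.9, 93.9 and 77.2 CPM with FoxOi_Loperamide and 38.6, 38.9 and 41.1 CPM with FoxOi. The FoxOi_Loperamide libraries overlapped those of DMSO, at 89.0, 92.2 and 86.7 CPM, and 97.7% was undone. In both genes Loperamide libraries were also above every DMSO library.

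Pdx1, the master regulator of pancreas and beta cells (ENSMUSG00000029644, chromosome 5, 147269959 to 147275848), had 216, 224 and 255 CPM with FoxOi_Loperamide and 173, 181 and 173 CPM with FoxOi. The lowest library with both compounds was above the highest with the inhibitor, and the rise was 0.40 ± 0.08 (adjusted p = 0.0021), or 35.3% of the fall. Loperamide alone lowered Pdx1 by 0.24 ± 0.08, so its effect differed with and without the inhibitor (interaction 0.64 ± 0.12, adjusted p = 0.00251). Neurod1 rose by 0.43 ± 0.08 and Foxo1 itself by 0.67 ± 0.11, to 40.9 ± 3.33 CPM with FoxOi_Loperamide, against 25.6 ± 1.59 CPM with FoxOi and 35.9 ± 4.51 CPM with DMSO.

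FoxO family genes and known FoxO targets did not move in one direction. Of 33 tested, the inhibitor raised 12 and lowered 10, against 20.7% and 20.3% over all genes. Loperamide added to it raised 7 and lowered 3 (median 0.13), against 11.5% and 15.1% over all genes, or 12 and 5 with the block. Loperamide alone raised 15 and lowered 0, and the interaction was negative for 8 and positive for 1. Trib1, a pseudokinase, had 19.2, 21.8 and 22.4 CPM with FoxOi_Loperamide and 47.5, 49.5 and 47.0 CPM with FoxOi, and fell below every DMSO library, at 33.8, 31.3 and 39.3 CPM.

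Nkx6-1 was at the edge of the test in the fit without the block, at 0.33 ± 0.11 with an adjusted p of 0.0375. With the replicate block, which takes up the pairing of the libraries, it was 0.34 ± 0.07 with an adjusted p of 9.49e-05. In fits without the block, the call was lost without FoxOi_Loperamide replicate 1 (0.103), 2 (0.0841) or 3 (0.0523), without FoxOi replicate 1 (0.056) or 3 (0.151), without Loperamide replicate 2 (0.0501), and in a fit to the 6 libraries alone (0.0605). Its adjusted p over all alternatives, the block included, ran from 9.49e-05 to 0.151.

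Some genes of glucose sensing and of the ATP-sensitive potassium channel also came part of the way back. Of 22 tested genes, 11 rose and 2 fell with loperamide (median 0.37), and 9 of the 11 were among 16 that the inhibitor had lowered. Glp1r, the receptor of the incretin GLP-1, had 592, 573 and 660.1 CPM with FoxOi_Loperamide and 394, 396 and 394 CPM with FoxOi, and undid 65.9% of its fall. Pyruvate carboxylase (Pcx) rose by 0.60 ± 0.08. Slc2a2, the glucose transporter GLUT2, was low everywhere, at 1.03, 1.56 and 1.28 CPM with FoxOi_Loperamide and 0.697, 1.48 and 0.769 CPM with FoxOi. The groups overlapped, and a difference of 0.38 ± 0.34 (adjusted p = 0.449) was not detectable at this depth.

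**Figure D3:**
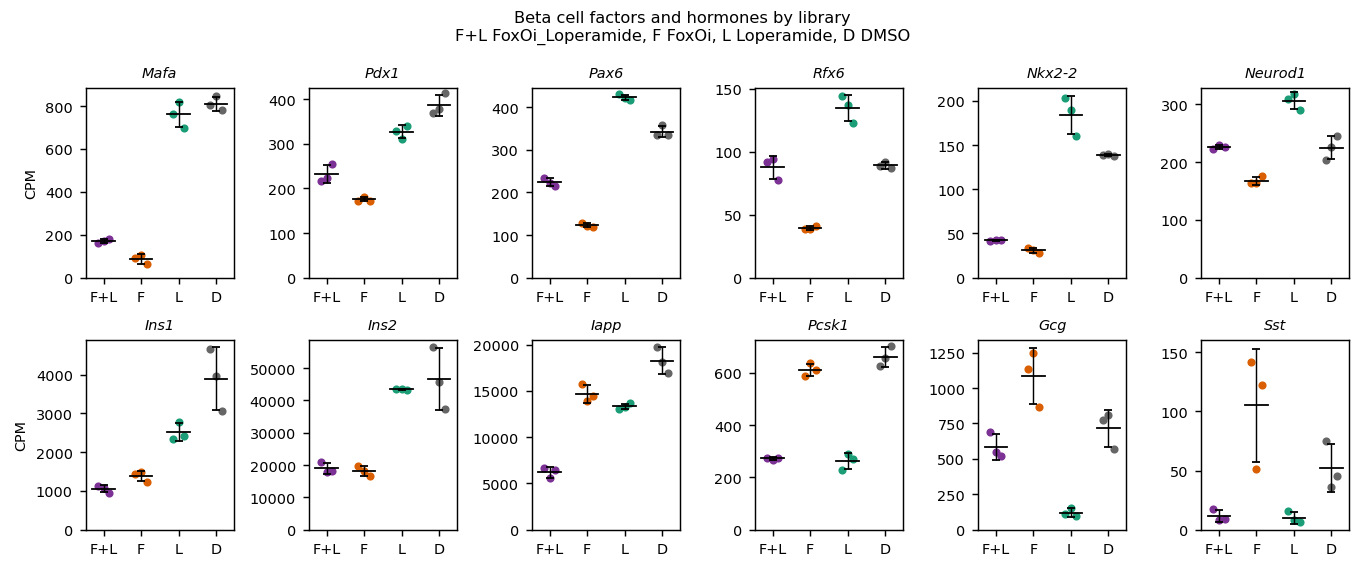
CPM of 12 beta cell and islet hormone genes in each library (points) with the mean and SD of 3 libraries (bars), with FoxOi_Loperamide (F+L) left of FoxOi (F), Loperamide (L) and DMSO (D). Mafa, Pdx1, Pax6, Rfx6, Nkx2-2 and Neurod1 are higher in every FoxOi_Loperamide library than in every FoxOi library. Ins2 overlaps between these groups, while Iapp, Pcsk1, Gcg and Sst are lower with both compounds.

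Among reversed falls with a mean of at least 1 CPM and a gene name that is not a clone number, the 6 largest rises were that of Egr1, given above, and those of 5 genes on none of the lists. Klhl14, a Kelch-like protein, had 3.54, 4.25 and 3.72 CPM with FoxOi_Loperamide against 0.639, 1.04 and 0.666 CPM with FoxOi, and its level with both compounds overlapped that of DMSO, at 3.64, 3.42 and 4.26 CPM. Pcdh15, a protocadherin, rose by 2.16 ± 0.18 and undid 79.9% of its fall. Aqp4, a water channel, rose by 1.98 ± 0.34, Pik3cg, a catalytic subunit of phosphoinositide 3-kinase, by 1.81 ± 0.27, and Fn3k, which removes sugars from glycated proteins, by 1.79 ± 0.16 to more than its DMSO level. On the exocytosis and neuronal lists, Rph3al, a Rab effector of granule exocytosis, rose by 0.95 ± 0.16, and tyrosine hydroxylase (Th) by 1.18 ± 0.20. Of 15 tested neuronal genes, 2 rose and 3 fell (median -0.03), or 4 and 3 with the block. Those that fell were Dbh at -2.90, Nefm at -0.47 and Gap43 at -0.42. The 3 were 0 without FoxOi_Loperamide replicate 2, and 1 without FoxOi_Loperamide replicate 3, without FoxOi replicate 1 or in the 6-library fit.

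The insulin genes did not rise with these factors. Ins2 (ENSMUSG00000000215, chromosome 7, 142678656 to 142743381) had 20988, 17752 and 18286 CPM with FoxOi_Loperamide and 19759, 18032 and 16606 CPM with FoxOi. The groups overlapped, the log2 difference was 0.07 ± 0.13 (adjusted p = 0.742), and both lay below every DMSO library, at 56661, 45732 and 37473 CPM. Ins1 (ENSMUSG00000035804, chromosome 19, 52264297 to 52265476) had 1131, 1072 and 955 CPM with FoxOi_Loperamide and 1433, 1484 and 1242 CPM with FoxOi. It was lower by 0.40 ± 0.13 (adjusted p = 0.0389) in the fit without the block. That call was lost without FoxOi_Loperamide replicate 2 (0.0824) or 3 (0.136), FoxOi replicate 1 (0.124) or 2 (0.136), or DMSO replicate 2 (0.0715). The adjusted p ranged from 0.000235, with the replicate block, to 0.136 over all alternatives.

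Several other islet and gut hormones fell. Iapp, the amyloid peptide released with insulin, had 6704, 5563 and 6440.2 CPM with FoxOi_Loperamide against 15721, 13864 and 14410.3 CPM with FoxOi, a fall of 1.23 ± 0.09 (adjusted p = 2.58e-07). Cck, the gut hormone cholecystokinin, fell by 1.79 ± 0.11, and Ucn3, a peptide hormone of the mature beta cell, by 1.01 ± 0.24 on top of a fall of 1.33 ± 0.21 with the inhibitor. Of 13 tested islet and gut hormones, 8 fell and 0 rose (median -0.89), of which the inhibitor had lowered 4 and raised 3. Aldh1a3, an aldehyde dehydrogenase of dedifferentiating beta cells, had 14 counts over FoxOi_Loperamide and 36 over FoxOi and was too low to be tested.

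Hormones of other islet cells also came down. Gcg, which encodes glucagon of alpha cells, had 690.2, 549.6 and 519 CPM with FoxOi_Loperamide and 1134, 1249.6 and 868 CPM with FoxOi. It fell by 0.89 ± 0.20 with the inhibitor present, against 2.56 ± 0.21 without it, so the effect of loperamide was smaller with the inhibitor (interaction 1.68 ± 0.28, adjusted p = 0.00219). Sst, the somatostatin of delta cells, had 17.1, 8.31 and 9.45 CPM with FoxOi_Loperamide and 142, 51.3 and 122 CPM with FoxOi, a fall of 3.17 ± 0.47. FoxOi replicate 2 was the lowest of its group and still above every FoxOi_Loperamide library, and the inhibitor's own difference of 1.00 ± 0.43 did not pass the test. The 14 alpha cell markers summed to 1405 to 1589 CPM per FoxOi_Loperamide library and 2015 to 2625 CPM per FoxOi library, and 4 of 8 tested fell and 1 rose. Of the 14, 2 were at 0 in FoxOi_Loperamide and 1 in FoxOi. The 9 markers of delta, PP and epsilon cells summed to 115 to 151 CPM and 229.9 to 333 CPM. The part of these cell types in the hormone falls was not tested.

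Genes of prohormone processing and secretory granules fell in part. Pcsk1, the convertase that makes the first cut in proinsulin (ENSMUSG00000021587, chromosome 13, 75089826 to 75134861), had 274, 267 and 275 CPM with FoxOi_Loperamide against 589, 636 and 609 CPM with FoxOi. FoxOi libraries overlapped those of DMSO, at 624, 654 and 701 CPM, and the fall of 1.17 ± 0.09 with loperamide added compares with 1.33 ± 0.09 for loperamide alone. Pcsk2, the second convertase, had 1802, 1483 and 1829 CPM with FoxOi_Loperamide and 1781, 1628 and 1688 CPM with FoxOi, with groups that overlapped and an adjusted p of 0.978. Pam, which amidates peptide hormones, had 85.8, 94.7 and 97.9 CPM with FoxOi_Loperamide and 361, 443 and 432 CPM with FoxOi, and Vgf, a granule protein, fell by 1.85 ± 0.08. Of 21 tested processing and granule genes, 12 fell and 0 rose (median -0.34), and 13 and 2 with the block. In place of 0, 1 gene rose without FoxOi replicate 1, DMSO replicate 1 or DMSO replicate 3, in the 6-library fit and with no filter. Of the 12, 7 had already been lowered by the inhibitor, which lowered 14 in all.

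Exocytosis genes gave fewer calls. Of 22 tested, 6 fell and 1 rose, against 15.1% and 11.5% of all tested genes, or 11 and 6 with the block. Without FoxOi replicate 1, 3 fell, and 2 rose without FoxOi_Loperamide replicate 1, DMSO replicate 1 or DMSO replicate 3, with the other scaling, with no filter and with DESeq2. Syt4, a synaptotagmin, fell by 1.24 ± 0.16 and undid a rise of 0.92 ± 0.16, and the vesicle priming factor Unc13a fell by 0.39 ± 0.09.

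Chaperones of the endoplasmic reticulum (ER) fell almost throughout. Of 29 tested ER chaperones and folding enzymes, 27 fell with loperamide and 0 rose, with a median of -1.10 and, with the block, 27 and 1. The inhibitor had lowered 19 and raised 1 of the 29 (list median -0.36), and 18 genes were lowered both by the inhibitor and by loperamide added to it. Hspa5, the chaperone BiP (ENSMUSG00000026864, chromosome 2, 34771970 to 34777547), had 893, 831 and 695 CPM with FoxOi_Loperamide and 2647, 2654 and 2541 CPM with FoxOi. Its promoter holds the ER element 65 bases before the RefSeq start, which lies inside the gene span given here. The groups were separated by a wide margin, and the fall was 1.70 ± 0.10 (adjusted p = 1.70e-08), against 1.38 ± 0.09 with Loperamide alone. Sdf2l1, a cofactor of BiP, had 31.8, 32.6 and 29.8 CPM with FoxOi_Loperamide and 133, 136 and 115 CPM with FoxOi, and DMSO libraries stood highest at 296, 279 and 253 CPM. The disulfide isomerase Pdia4 fell by 1.55 ± 0.08.

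The transport route out of the ER fell with its chaperones. Of 48 tested genes of ER translocation and ER-to-Golgi transport, 46 fell and 0 rose (median -0.66), and 28 of them had been lowered by the inhibitor. Kdelr3, a receptor that returns chaperones to the ER, had 4.90, 5.44 and 3.23 CPM with FoxOi_Loperamide against 40.7, 30.3 and 37.1 CPM with FoxOi. The cargo receptors Tmed10 and Mcfd2 fell by 1.27 ± 0.09 and 1.18 ± 0.08. Of 21 genes of ER-associated degradation, 11 fell and 1 rose, with the mannosidase-like Edem2 at -1.01 ± 0.09, the lectin Erlec1 at -1.07 ± 0.09 and the ubiquitin ligase Syvn1 at -0.75 ± 0.08. In the ER chaperone list the loperamide effect was called as different with the inhibitor for 2 of 29 genes, and in the transport list for 2 of 48. Over all tested genes that share was 9.48%.

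Several factors that drive these genes fell as well. Xbp1, the factor spliced by the ER stress sensor IRE1 (ENSMUSG00000020484, chromosome 11, 5520659 to 5525893), had 98.0, 82.4 and 69.0 CPM with FoxOi_Loperamide and 235, 241 and 202 CPM with FoxOi. The fall of 1.44 ± 0.11 was larger than with Loperamide alone, at 0.77 ± 0.11 (interaction -0.68 ± 0.16, adjusted p = 0.0129). Bhlha15 (Mist1), a factor of secretory cells that Xbp1 induces, had 8.11, 10.3 and 5.92 CPM with FoxOi_Loperamide and 46.9, 50.1 and 41.4 CPM with FoxOi. The groups did not overlap, and the fall of 2.51 ± 0.17 came on top of an inhibitor fall of 1.15 ± 0.15. Bhlha15 is also an acinar marker. The 14 acinar markers, Bhlha15 among them, summed to 6.2 to 11 CPM per FoxOi_Loperamide library and 42.3 to 51.7 CPM per FoxOi library. Most of each sum was Bhlha15 itself, and 7 and 6 of the 14 markers were at 0. The part of acinar cells was not tested. Wfs1, an ER membrane protein, fell by 1.30 ± 0.08 after an inhibitor rise of 0.37 ± 0.08. Of 16 tested factors of the unfolded protein response, 10 fell and 0 rose, where the inhibitor had raised 6 and lowered 5.

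**Figure D4:**
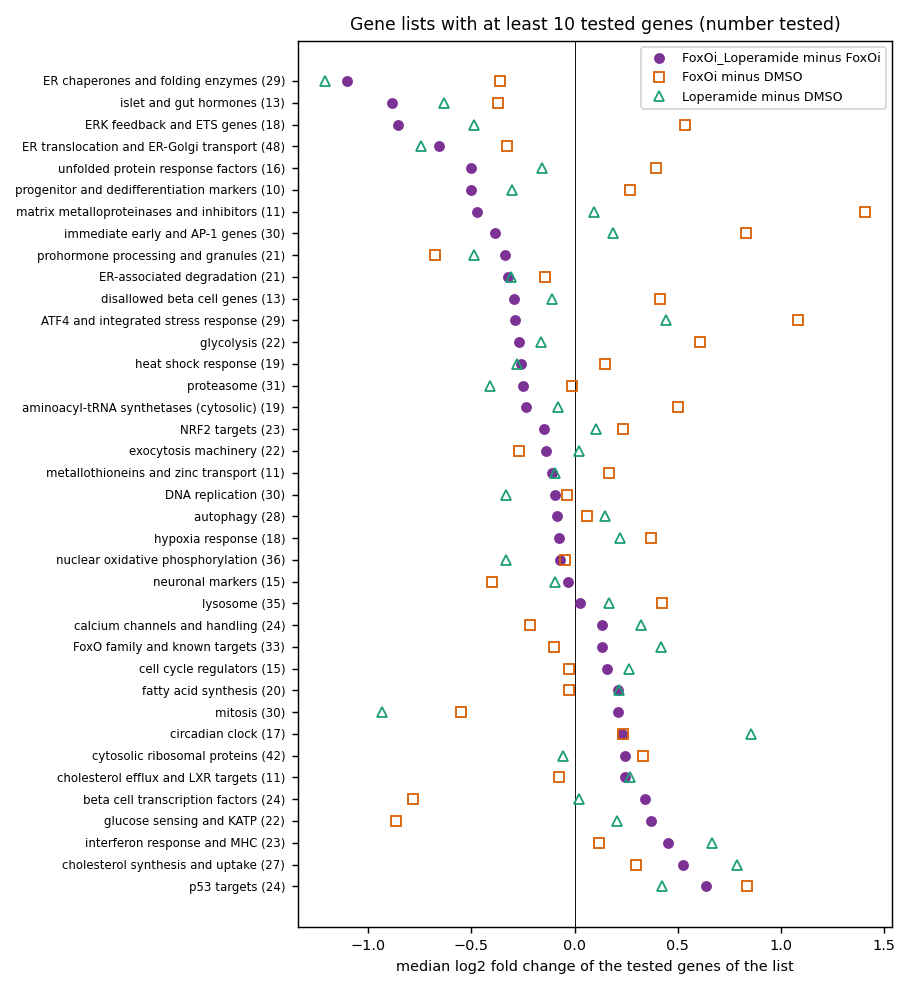
Median log2 fold change of the tested genes of each list with at least 10 tested genes, for FoxOi_Loperamide minus FoxOi (filled circles), FoxOi minus DMSO (squares) and Loperamide minus DMSO (triangles). ER chaperones lie lowest at -1.10 for loperamide added to the inhibitor, and p53 targets highest at 0.64, while the beta cell factors lie at 0.34 after -0.78 with the inhibitor. Medians over all tested genes were 0.00, 0.01 and 0.02.

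Many targets of the tumour suppressor p53 rose, in part on top of an inhibitor rise. Of 24 tested targets, 14 rose and 0 fell with loperamide (median 0.64), with 19 and 1 in the block, and 9 of the 14 were among 16 that the inhibitor had raised. Bax, the pore-forming protein of apoptosis (ENSMUSG00000003873, chromosome 7, 45461697 to 45466898), had 171, 147 and 144 CPM with FoxOi_Loperamide and 89.8, 68.6 and 79.6 CPM with FoxOi, above DMSO libraries at 64.0, 52.0 and 47.3 CPM. None of these groups overlapped, and the rise with loperamide added was 0.96 ± 0.13 (adjusted p = 8.08e-05). Ei24, an apoptosis-linked ER protein, rose by 0.65 ± 0.07, and Sesn1, a sestrin that p53 and FoxO factors induce, rose by 0.74 ± 0.10 after an inhibitor fall of 1.03 ± 0.10.

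At a mean of at least 1 CPM, the 6 largest of the 57 deepened rises were in genes on none of the lists. Adora2b, a receptor for adenosine (ENSMUSG00000018500, chromosome 11, 62248984 to 62266453), had 10.9, 8.13 and 12.5 CPM with FoxOi_Loperamide and 1.22, 0.878 and 0.974 CPM with FoxOi. The 3 libraries with both compounds were far above those of every other group, of which Loperamide was next at 2.33, 1.60 and 1.87 CPM. The rise was 3.35 ± 0.25 (adjusted p = 1.94e-07). Hrk, an activator of apoptosis of the BH3-only family, rose by 1.56 ± 0.22, and Gulp1, an adaptor of phagocytosis, by 2.21 ± 0.34. Sord, which converts sorbitol to fructose, had 119, 108 and 116 CPM with FoxOi_Loperamide and 46.9, 41.0 and 44.9 CPM with FoxOi. Specc1 rose by 1.51 ± 0.15 and Rspo1, an enhancer of Wnt signalling, by 1.29 ± 0.29.

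Deepened falls were mostly falls that loperamide also gave alone. Of the 121, 93 were lower with Loperamide than with DMSO, and 1 was higher. C1qtnf1, a secreted protein related to complement C1q, had 1.03, 1.13 and 1.04 CPM with FoxOi_Loperamide and 9.41, 11.3 and 10.7 CPM with FoxOi. The 4 groups did not overlap, with Loperamide at 3.08, 3.57 and 3.24 CPM and DMSO at 30.8, 27.8 and 27.4 CPM. Slc17a9, the transporter that loads ATP into vesicles, fell by 2.75 ± 0.19 after an inhibitor fall of 1.32 ± 0.16. Adamtsl2 had 4 counts over FoxOi_Loperamide and 35 over FoxOi, and Fibcd1 6 and 55.

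Many genes of cholesterol synthesis and uptake rose with loperamide. Of 27 tested genes, 16 rose and 1 fell with loperamide added to the inhibitor (median 0.52), and loperamide alone raised 22 and lowered 1 (median 0.79). The inhibitor raised 13 and lowered 2 (median 0.29), and 5 of the 16 were among those 13. Lpin1, a phosphatidate phosphatase on the list, had 54.0, 50.9 and 53.1 CPM with FoxOi_Loperamide and 14.8, 19.8 and 22.2 CPM with FoxOi, a rise of 1.47 ± 0.14 (adjusted p = 1.72e-06). The 1 lower gene was 0 without FoxOi_Loperamide replicate 2 or 3, FoxOi replicate 1 or 2, or DMSO replicate 2. Of 20 fatty acid synthesis genes, 9 rose and 2 fell, with fatty acid synthase (Fasn) at 0.66 ± 0.09 and the desaturase Scd1 at 1.26 ± 0.14.

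Some ribosomal protein genes rose and some proteasome genes fell, by small amounts. Of 42 tested cytosolic ribosomal protein genes, which have many pseudogene copies that can share reads, 10 rose and 0 fell (median 0.24), and 34 rose with the block. The count of 10 was 3 without FoxOi_Loperamide replicate 1, FoxOi replicate 2 or FoxOi replicate 3, 19 without FoxOi replicate 1, and 22 with no filter on low counts. Of 31 proteasome genes, 15 fell and 0 rose (median -0.25), or 23 with the block. The 15 became 8 without FoxOi_Loperamide replicate 2 or 3 or FoxOi replicate 2, 7 without DMSO replicate 2 and 6 without FoxOi replicate 1.

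Some genes of the mitochondrial genome rose, and the mitochondrial share of counts was also higher, as given above. Of 9 tested protein genes, 5 rose and 0 fell, and 2 rose without FoxOi_Loperamide replicate 1, FoxOi replicate 2 or FoxOi replicate 3. mt-Nd2 had 4234, 3205 and 3801 CPM with FoxOi_Loperamide and 1986, 1665 and 1714 CPM with FoxOi. The tRNA gene mt-Ti had the largest rise among the genes named, with 3.59, 3.69 and 3.23 CPM with FoxOi_Loperamide and 0.116, 0.220 and 0.307 CPM with FoxOi, a log2 change of 3.96 ± 0.33, and mt-Tl1 and mt-Tw rose by 2.38 ± 0.31 and 2.48 ± 0.31. Mitochondrial shares were also higher in Loperamide libraries, at 1.89% to 2.80%, than their same-numbered DMSO libraries, at 1.40% to 1.94%. Of 36 nuclear genes of oxidative phosphorylation, 2 fell and 0 rose, against 15.1% and 11.5% of all tested genes, or 10 and 3 with the block. The count of lower genes was 0 without FoxOi_Loperamide replicate 2 or 3, FoxOi replicate 1 or 2, or DMSO replicate 2, and 1 without Loperamide replicate 2 or with no filter. Without DMSO replicate 1, 1 rose.

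For a part of the genes loperamide acted differently with and without the inhibitor. Loperamide against DMSO shares no library with FoxOi_Loperamide against FoxOi, and it gave 5370 calls (31.9%), 2713 higher (16.1%) and 2657 lower (15.8%). Of the 1926 genes higher with loperamide added to the inhibitor, 1065 (55.3%) were also higher with Loperamide alone, 793 were not called and 68 were lower. Of the 2539 lower genes, 1249 (49.2%) were also lower alone, 1163 were not called and 127 were higher. Over the 16808 genes, which share libraries and one fit, the log2 effects with and without the inhibitor had a Pearson correlation of 0.52 and a Spearman correlation of 0.50. A test of the difference, the interaction, called 1594 genes (9.48%), 616 positive (3.66%) and 978 negative (5.82%), and 4334 with the block.

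Genes of mitosis were lowered by loperamide without the inhibitor and mostly not with it. Loperamide alone lowered all 30 tested mitotic genes (median -0.93), and the inhibitor alone lowered 24 of them and raised 1 (median -0.55). With loperamide added to the inhibitor, 6 rose and 1 fell (median 0.21), and 16 and 1 with the block, and 3 rose without FoxOi_Loperamide replicate 2. The interaction was positive for 29 of the 30 genes, against 3.66% of all genes. Cenpe, a kinesin of the kinetochore (ENSMUSG00000045328, chromosome 3, 135212537 to 135273611), had 111, 131 and 110.1 CPM with FoxOi_Loperamide and 75.3, 86.9 and 75.3 CPM with FoxOi, but 58.9, 82.0 and 67.8 CPM with Loperamide and 118.33, 129.6 and 151 CPM with DMSO. FoxOi_Loperamide libraries lay above FoxOi, while Loperamide libraries lay below DMSO. Nusap1, a spindle protein, did the same, with a rise of 0.51 ± 0.10 and a fall of 0.88 ± 0.09. The 1 lower gene was Spc25, of the kinetochore, which fell by 0.93 ± 0.08 after an inhibitor rise of 0.95 ± 0.08.

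The stress response list gave the reverse. Loperamide alone raised 16 of the 29 ATF4 genes and lowered 1 (median 0.44), and the interaction was negative for 19 and positive for 0, against 5.82% of all genes. Of the glycolysis gene IDs 6 had a negative interaction and 0 a positive one, and of the immediate early genes 10 and 1.

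**Figure D5:**
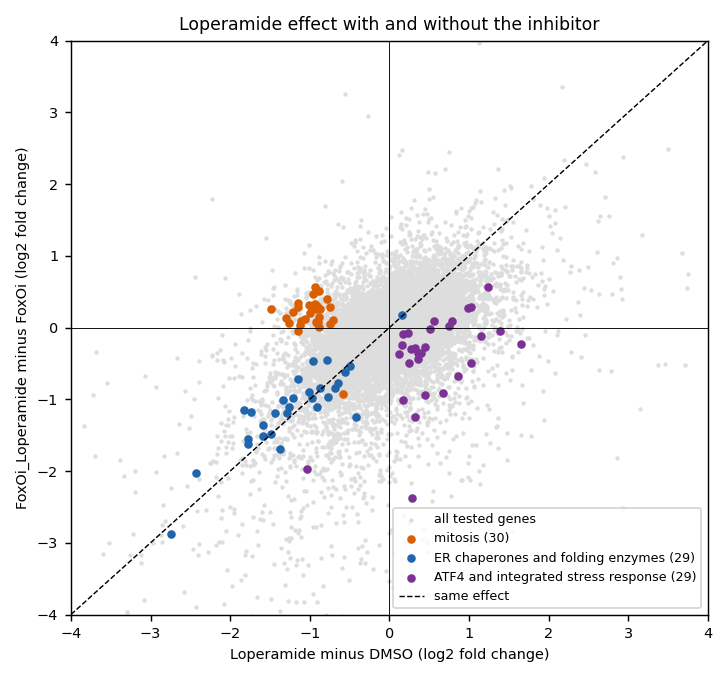
Log2 fold change of loperamide without the inhibitor (Loperamide minus DMSO, x axis) and with it (FoxOi_Loperamide minus FoxOi, y axis) for all tested genes, with 69 genes outside the plotted range. The 30 mitotic genes lie left of 0 and mostly above 0, the 29 ER chaperones lie mostly along the dashed line of equal effect, and the 29 ATF4 genes lie mostly right of 0 and below the line.

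Single genes with called interactions lay in both directions. Dll1, a ligand of Notch receptors (ENSMUSG00000014773, chromosome 17, 15367354 to 15376872), had 33.5, 28.0 and 20.1 CPM with FoxOi_Loperamide and 5.23, 4.67 and 4.77 CPM with FoxOi. Loperamide libraries, at 6.52, 7.14 and 7.69 CPM, overlapped DMSO libraries, at 7.10, 7.16 and 4.77 CPM, and the interaction was 2.31 ± 0.27 (adjusted p = 0.000108). Slc7a2, a transporter of cationic amino acids that is also on the alpha cell list, had 354, 425 and 493 CPM with FoxOi_Loperamide and 78.6, 92.8 and 103 CPM with FoxOi, a rise of 2.21 ± 0.16, against 0.70 ± 0.15 without the inhibitor. Dpp10, a subunit of potassium channel complexes, rose by 2.44 ± 0.20, with an interaction of 1.70 ± 0.28. On the negative side, Wipi1, a protein of autophagosome formation, had 35.6, 32.2 and 40.9 CPM with FoxOi_Loperamide and 255, 282 and 282 CPM with FoxOi, a fall of 2.91 ± 0.13, against 1.11 ± 0.12 without the inhibitor. Ryr2, a calcium release channel, fell by 2.86 ± 0.21 and undid more than its inhibitor rise of 0.95 ± 0.18.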

How the data were processed

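Single-end 50-base reads of mRNA libraries (TruSeq Stranded kit, per the labels' protocols) had been processed with STAR 2.7.5a, Picard 2.19.2 and DESeq2 on GRCm38, per the submitters' processing notes. The authors deposited raw read counts per gene. Neither the counting tool nor its strand setting is given in the sources used here. All columns of counts were mapped to samples by title, and 0 columns were left over.

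Genes passing edgeR's filterByExpr (minimum count 10, minimum total 15) were tested, 16808 of 55487, with TMM scaling and the quasi-likelihood test in edgeR 4.0.16 (R 4.3.3). All 12 libraries entered 1 fit with the group as its only term, and p-values were adjusted by Benjamini-Hochberg over all tested genes, with calls at 0.05. The interaction is the loperamide effect with the inhibitor minus that without it. Standard errors are the log2 fold change divided by the root of F, the prior count was 0.125, and floors use 3 counts per group. The fits were also run on simulated data with few changed genes and no replicate effect. That setting differs from these paired libraries, so it does not check their p-values.

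Replicate numbers come from the sample titles. Deviations from group means correlated at 0.14 to 0.70 in all 18 same-numbered pairs of libraries and at -0.68 to 0.22 in the 36 others, so the numbers pair the samples. The fit with the replicate number as a block is given where it changed a count by over 1.5 times. Standard errors and p-values of single genes come from the fit without the block, which leaves the pairing out, unless the block is named. Counts of replicates differed by more than sampling noise, with a chi-square per degree of freedom of 4.98 to 30.6.

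The 168 named genes were 20 fixed beta cell and stress genes, the 8 largest rises and falls, the 6 largest changes in each reversed or deepened class, up to 3 genes per list, and the 5 largest interactions each way, at a mean of at least 1 CPM where ranked by size. Some of these genes are not reported here. Members and the 47 lists (1000 genes, 881 tested) were chosen with earlier results of these data known. Alternatives were DESeq2 1.42.0, other scaling, no filter, the block, 6 libraries alone, no fold minimum and each library left out.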

Additional observations from a re-analysis of the deposited data

Results flagged for a closer look

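For 10 genes named above or by the same rule, the loperamide effect had opposite signs with and without the inhibitor in every library, and the interaction was called. Over all genes, 195 were called in opposite directions, 68 higher and 127 lower with the inhibitor present. Groups of 3 libraries allow no outlier test.

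Of the 10 genes, 8 had a positive interaction. The mitotic kinesin gene Cenpe had an interaction of 1.501 on the log2 scale and the spindle gene Nusap1 of 1.39. Ckap2, a spindle protein gene on the p53 list, had 1.23, with 76.1, 73.7 and 66.0 CPM with FoxOi_Loperamide, 41.1, 36.2 and 42.8 with FoxOi, 47.3, 51.1 and 45.4 with Loperamide and 61.9, 62.7 and 63.6 with DMSO. The pseudogene Kifc5c-ps, a copy of a mitotic kinesin gene that may share its reads, had 1.78, and its rise of 0.89 ± 0.27 (adjusted p = 0.0244) was lost with DESeq2 (0.0614), without FoxOi_Loperamide replicate 2 (0.0872) and without FoxOi replicate 1 (0.058) or 3 (0.0769). With the replicate block the adjusted p of Kifc5c-ps was 0.0147. Cdkn2d, an inhibitor of the kinases CDK4 and CDK6, had 0.66.

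Pdx1 had an interaction of 0.64 and the neurofilament gene Nefl of 0.96. Adam32, a gene of the metalloprotease family known from testis, had 2.79, and its rise of 1.25 ± 0.33 (adjusted p = 0.011) was lost without FoxOi_Loperamide replicate 1 (0.0569) or FoxOi replicate 3 (0.0515). With the replicate block the adjusted p of Adam32 was 4.39e-05. On the negative side stood Cxcl12 with -2.95 and the myosin kinase gene Mylk2 with -4.67. Mylk2 had 69 counts over FoxOi_Loperamide, 262 over FoxOi, 20 over Loperamide and 3 over DMSO, so its fitted interaction depends on the prior count.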

How the results depend on the processing

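The replicate numbers pair the samples, and the fit with the replicate block gave 7504 genes called between FoxOi_Loperamide and FoxOi, 94 deepened rises and 4334 interactions, and it changed no call among the 168 named genes. With no fold minimum for an inhibitor effect there were 1084 reversed rises, 365 deepened rises, 748 reversed falls and 547 deepened falls. The other scaling, DESeq2 and no filter kept the counts of calls, reversed and deepened genes and interactions within 1.5 times, the fit to the 6 libraries gave 4273 genes called between FoxOi_Loperamide and FoxOi and could not give the others, and no list median changed sign under the other scaling, DESeq2 or the block. Leaving out 1 library gave 3284 to 4936 calls, 442 to 520 reversed rises, 43 to 61 deepened rises, 170 to 252 reversed falls, 95 to 152 deepened falls and 1082 to 1894 interactions. The uncalled log2 differences of 3 genes changed sign without 1 library, and the cause was not tested: Pcsk2 to -0.035 or -0.047 without FoxOi_Loperamide replicate 1 or 3 and to -0.025 or -6.5e-05 without FoxOi replicate 2 or 3 (range -0.047 to 0.097), Ins2 to -0.0077 without FoxOi_Loperamide replicate 1 (range -0.0077 to 0.165), and Ddit3 to 0.145 without FoxOi_Loperamide replicate 3 and 0.105 without FoxOi replicate 1 (range -0.226 to 0.145). Depth limits genes of few counts, such as Slc2a2.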

Other observations

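Clock output genes of the PAR bZIP family rose. Of 17 tested circadian genes, 7 were higher and 4 lower with loperamide added to the inhibitor (median 0.23), where loperamide alone raised 11 and lowered 1 (median 0.85). The lower count was 2 without FoxOi_Loperamide replicate 2 or 3 or FoxOi replicate 2. Dbp, a PAR bZIP factor that the clock drives, had 17.7, 14.1 and 18.9 CPM with FoxOi_Loperamide and 7.202, 7.14 and 7.63 CPM with FoxOi. Its relatives Tef and Hlf rose by 1.03 ± 0.12 and 1.01 ± 0.12.

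Of 23 tested interferon response and MHC genes, 10 rose and 2 fell (median 0.45), the 2 being 1 without FoxOi replicate 3. B2m, the light chain of MHC class I, had 121, 92.3 and 112 CPM with FoxOi_Loperamide and 62.6, 51.8 and 59.0 CPM with FoxOi, and Stat2, a factor of interferon signalling, rose by 0.90 ± 0.09.

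Calcium handling genes went both ways, with 7 of 24 higher and 7 lower. The pump gene Atp2a3 rose by 0.64 ± 0.08. Of 30 tested DNA replication genes, 5 fell and 1 rose, against 15.1% and 11.5% of all tested genes, so the share that fell was near that of all genes. With the block 9 fell and 3 rose, and 2 rose with no filter. The nucleotide synthesis gene Rrm2 fell by 1.08 ± 0.12. The cyclin gene Ccnd2 had 25.4, 40.8 and 37.4 CPM with FoxOi_Loperamide and 75.4, 114 and 104 CPM with FoxOi, a fall of 1.505 ± 0.28. Of 28 autophagy genes, 6 fell and 2 rose, against the same 15.1% and 11.5% of all tested genes, or 9 and 5 with the block. Folliculin (Flcn) was at 0.76 ± 0.09 and Atg13 at -0.69 ± 0.08.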
